A study of Mus musculus with 6 samples.

Results

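Inhibition in the hippocampus runs through receptors for GABA and, to a lesser extent, glycine, and 28 genes of that machinery were described in hippocampal RNA sequencing libraries from mice with a floxed Bcas2 gene. They were chosen by gene name, as receptor subunits, postsynaptic scaffold and adhesion proteins, chloride transporters, enzymes of GABA breakdown and the GABARAP family. All 28 were found among the 33385 genes of the deposited table, and 27 had enough counts to be tested. The knockdown group (n = 3) had received AAV2/9-Syn-cre, by its name an adeno-associated virus with Cre recombinase under the neuronal synapsin promoter, and the control group (n = 3) an AAV vehicle. Both groups were Bcas2F/F mice, so the controls carried the floxed alleles too, although one label calls them WT. Sex, age and strain are not given in the labels, which also do not say whether a library came from a single animal, so a p-value here speaks only of how much the libraries vary. Whole hippocampal tissue was sequenced, including glia and other cells in which the synapsin promoter is not active, and the labels do not say what the vehicle virus carried.

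GABAA receptors are chloride channels built of several subunits, usually alpha and beta subunits with a gamma or delta subunit, and the subunits set where the channel sits and how long it stays open. GABAB receptors are G protein-coupled pairs, and glycine receptors are chloride channels related to GABAA receptors. Gephyrin holds GABAA and glycine receptors at the synapse, and the potassium-chloride transporter of neurons keeps the chloride gradient that makes these channels inhibitory. The question for these genes is whether their levels differ once neurons carry Cre against Bcas2, which encodes a subunit of a splicing complex.

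Levels are in FPKM, the authors' fragments per kilobase of transcript, scaled to library size, which can be compared between genes. Differences are edgeR log2 fold changes, knockdown over control, and an adjusted p under 0.05 over all 20946 tested genes counted as a call. Each library held 55914768 to 76481458 deposited counts. Bcas2 itself was at 9.08, 9.17 and 8.87 FPKM in knockdown replicates 1, 2 and 3, against 9.87, 9.71 and 9.44 FPKM in the controls, and its log2 fold change was -0.07 (SE 0.0649, unadjusted p = 0.289, adjusted p = 0.861). The knockdown libraries averaged 93.4% of the control level, and each lay below every control. Such a lack of overlap, in either direction, was found for 13.0% of all tested genes. The edgeR test did not show a lower Bcas2 transcript level, so "knockdown" is used here only as a name for the group that received Cre. Single libraries stood apart. Summed choroid plexus markers were at 4933 FPKM in control replicate 3 and at 26.7 to 55.1 FPKM in the other libraries, and summed striatal markers at 101.9 FPKM in knockdown replicate 1 and 21.6 to 37.3 FPKM elsewhere. Control replicates 2 and 3 alone had counts of Y-linked genes, and no knockdown library did, so the presence of these counts is partly confounded with group.

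None of the 27 tested genes of inhibitory signalling was called, and none of all 20946 genes was (0.0%). DESeq2 called none of the 27, of which Glra1 was given no adjusted p. It called 0.486% of the 15221 genes to which it gave one. At an unadjusted p under 0.05, edgeR found 2 of the 27, where it found 6.19% of all tested genes. They were Abat, higher in the knockdown group as were 3.03% of all tested genes, and Slc12a2, lower as were 3.16%. The FPKM values of the groups did not overlap for 3 of the 27, namely Abat, Gabarapl1 and Slc12a2, against 13.0% of all tested genes. Of these, 2 were higher (5.47% of all tested genes) and 1 was lower (7.5%), so the counts lay near the background. For each of these genes an exact permutation test, two-sided, returned p = 0.1, and groups of 3 can give no smaller one. The median log2 fold change was 0.05 over the 27 and -0.00053 over all tested genes.

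**Figure D1:**
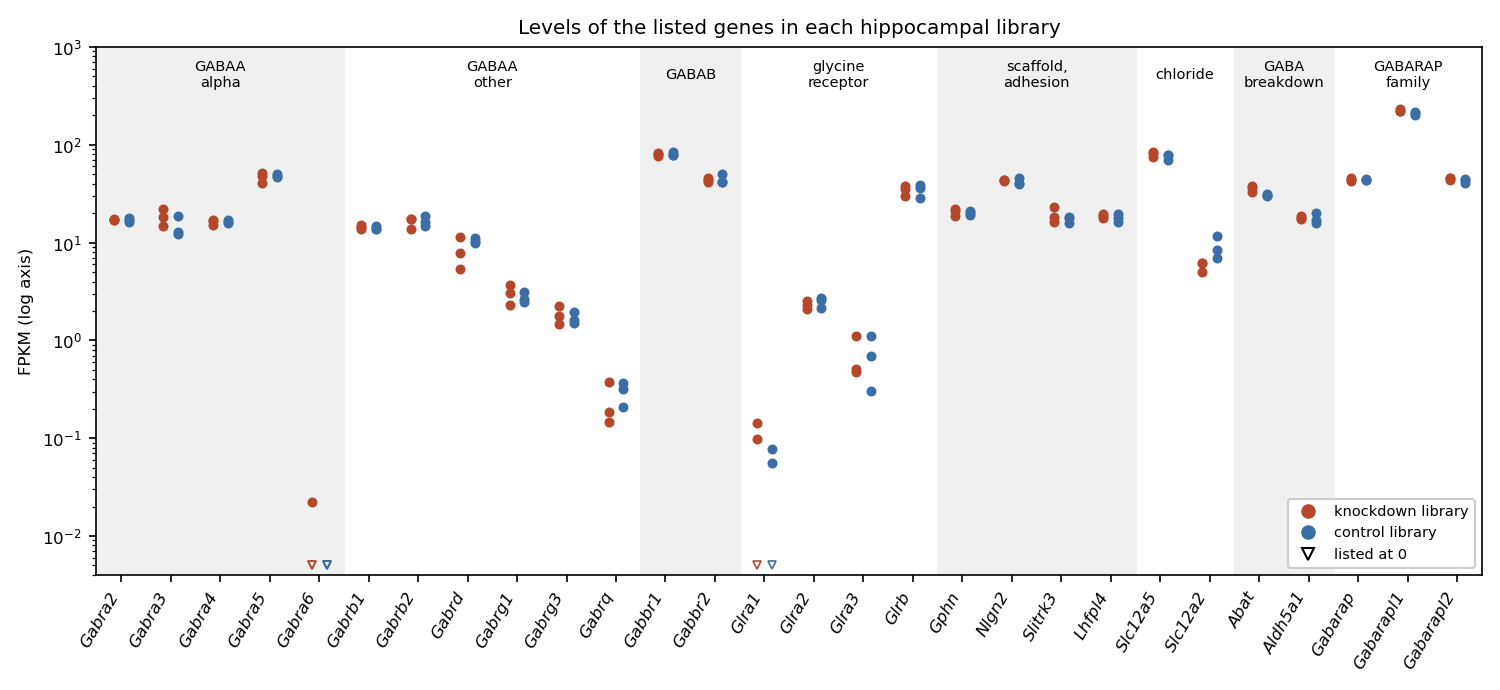
FPKM on a log axis for each of the 28 genes, grouped by role, with 1 point per library, knockdown left of control; open triangles mark libraries where a gene is listed at 0. Gabarapl1 is the most abundant at over 200 FPKM, Gabra6 and Glra1 lie near 0, and for all but 3 of the genes the groups overlap.

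The levels spanned a wide range. Gabarapl1 alone exceeded 100 FPKM, 18 genes lay between 10 and 100 FPKM, 5 between 1 and 10 FPKM, and Gabra6, Gabrq, Glra1 and Glra3 were under 1 FPKM. The fitted 95% interval lay within a 1.5-fold change in either direction for 21 of the 27 tested genes. The other 6 were Gabra3, Gabrd, Gabrq, Glra1, Glra3 and Slc12a2. In the main fit 22 of the 27 had a positive log2 fold change and 5 a negative one, beside 49.9% positive over all tested genes. That split was 15 to 10 among the 25 of them measured by limma on log2(FPKM + 1), beside 44.1% positive over all genes there. It was 13 to 13 among 26 without knockdown replicate 1 and control replicate 3, beside 50.1%. Without knockdown replicate 1 or knockdown replicate 3 alone it was 17 to 10, and without knockdown replicate 2 it was 21 to 6. The split thus depends on the setting and on the libraries kept.

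**Figure D2:**
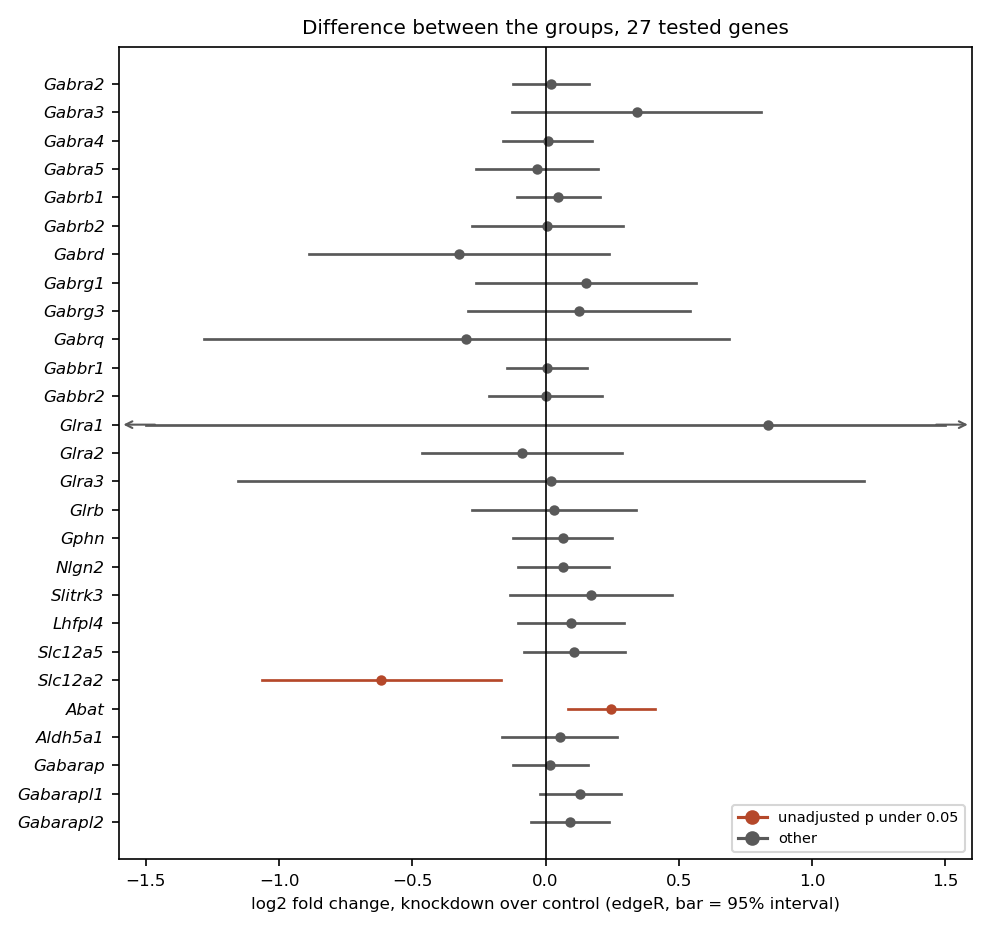
Log2 fold change, knockdown over control, for the 27 tested genes (points) with the 95% interval of edgeR's fit (bars; arrows mark intervals that run past the axis). The intervals of Abat and Slc12a2 leave out 0, and those of the other 25 span it.

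Among the alpha subunits, which largely set the location and drug sensitivity of GABAA receptors, Gabra5 was the most abundant of the 5 listed. Gabra5, which forms mostly extrasynaptic receptors in pyramidal neurons, was at 40.4, 51.4 and 47.5 FPKM in knockdown replicates 1 to 3, against 50.0, 48.1 and 46.7 FPKM in the controls. The lowest and the highest library were thus both knockdown libraries, and the log2 fold change was -0.03 (SE 0.0975, adjusted p = 0.963). Gabra2, a synaptic subunit of principal neurons, spanned 16.8 to 17.3 FPKM in knockdown libraries and 16.3 to 17.8 FPKM in controls, and its interval spans 91.9% to 112% of the control level. Its location on chromosome 5 of GRCm39 (71114940 to 71253192) places it in a cluster with Gabrg1, Gabra4 and Gabrb1.

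Gabra3, an X-linked subunit, had a coefficient of variation of 24.8% over the controls, against 3.22% to 4.50% for Gabra2, Gabra4 and Gabra5. It was at 22.2, 14.7 and 18.1 FPKM in knockdown replicates 1 to 3, against 12.4, 18.9 and 12.8 FPKM in the controls, so that control replicate 2 lay within the knockdown range. Its log2 fold change came to 0.34 (SE 0.200, adjusted p = 0.816). It was 0.56 without control replicate 2, 0.18 without knockdown replicate 1 and 0.09 without knockdown replicate 1 and control replicate 3 together. With a model term for Y-linked counts it was 0.58, and in the libraries without such counts also 0.58. Both of these values rest on control replicate 1, the only control without Y-linked counts and the library where Gabra3 was lowest. The size of the Gabra3 difference thus depended on the setting and on the libraries kept. Gabra6, a subunit known from cerebellar granule cells, was at 0.0224 FPKM in knockdown replicate 1, from a count of 4, and listed at 0 in the other 5 libraries. It was the member left out by the count filter. Within the 5 listed alpha subunits, Gabra5 made up 47.3% ± 4.55 of the summed FPKM in the knockdown libraries and 50.1% ± 2.60 in the controls (SD, n = 3 each).

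Gabra4 and Gabrb1 lie head to head on chromosome 5 and had nearly equal levels. Gabra4, an alpha subunit of extrasynaptic receptors in dentate granule cells, was at 15.0, 16.5 and 17.1 FPKM in knockdown replicates 1 to 3, against 16.0, 17.0 and 16.2 FPKM in the controls. Gabrb1, a beta subunit, was at 13.6, 15.0 and 14.4 FPKM in the same knockdown libraries, against 13.7, 14.8 and 13.9 FPKM in the controls. The ratio of Gabra4 to Gabrb1 was 1.13 ± 0.0490 in the knockdown libraries and 1.16 ± 0.00938 in the controls (SD, n = 3 each), and 1.10 to 1.18 over all 6 libraries. In the deposited coordinates of GRCm39 the loci share 196 bases on opposite strands, and the strand setting of the counting is not given in the sources used here, so reads from those bases could be assigned to either gene. In those coordinates Gabrb1 starts at base 71815456 on the plus strand, and Gabra4 starts at base 71815651 on the minus strand. Bases upstream of the Gabra4 start thus lie within the Gabrb1 locus, not between the starts. Of the window before the Gabra4 start, 195 bases are shown from RefSeq's promoter table (GRCm38.p6, chr5:71658364-71658558, minus strand, bases 250 to 56 upstream of the Gabra4 start). Capitals mark GGGCGG, the GC box bound by Sp-family factors, on either strand.
Gabra4: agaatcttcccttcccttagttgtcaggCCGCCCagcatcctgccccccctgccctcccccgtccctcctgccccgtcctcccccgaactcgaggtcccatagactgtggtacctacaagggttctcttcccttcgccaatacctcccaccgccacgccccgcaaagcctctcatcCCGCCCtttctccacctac
The 250 bases before the Gabra4 start held 2 GC boxes, a match found in 32.7% of 32851 promoter windows of the same length, and had a GC content of 61.2%, against a median of 52.4% for all windows.

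Gabrd, which encodes the delta subunit that pairs with the alpha subunit of Gabra4 in tonic, extrasynaptic receptors of dentate granule cells, varied widely within the knockdown group. It was at 11.4, 5.39 and 7.86 FPKM in knockdown replicates 1 to 3, against 10.4, 11.1 and 9.87 FPKM in the controls. Knockdown replicates 2 and 3 lay below every control, and knockdown replicate 1 above all 3. Over all 6 libraries Gabrd differed by -0.32 on the log2 scale (SE 0.240, adjusted p = 0.838). It was -0.63 without knockdown replicate 1, with an unadjusted p of 0.00989 and an adjusted p of 0.732, and -0.10 without knockdown replicate 2. The ratio of Gabrd to Gabra4 was 0.761, 0.327 and 0.459 in knockdown replicates 1 to 3, against 0.653, 0.652 and 0.609 in the controls. Prox1, the transcription factor of dentate granule neurons, was at 6.06, 10.8 and 11.0 FPKM in knockdown replicates 1 to 3, against 13.8, 8.41 and 12.6 FPKM in the controls. It was lowest where Gabrd was highest, but it was highest in control replicate 1, where Gabrd was at 10.4 FPKM. Prox1 is 1 of 9 listed markers of principal neurons, of which 4 were higher and 5 lower in the knockdown group. The part of Prox1 in the Gabrd values was not tested.

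The remaining GABAA subunits differed by less than their spread. Gabrb2, a beta subunit of synaptic receptors, was at 17.5, 13.8 and 17.5 FPKM in knockdown replicates 1 to 3, against 16.2, 18.5 and 14.6 FPKM in the controls, with a log2 fold change of 0.01 (SE 0.122). The groups overlapped almost fully. Gabrg1 averaged 3.02 ± 0.676 FPKM in the knockdown libraries and 2.76 ± 0.342 FPKM in the controls, and Gabrg3 averaged 1.82 ± 0.386 FPKM against 1.69 ± 0.250 FPKM (SD, n = 3 each). Both encode less common gamma subunits, and both were highest in knockdown replicate 1, the library with the most striatal transcripts, and lower in knockdown replicate 2 than in any control. The part of those transcripts in these values was not tested. Gabrq, the theta subunit, spanned 0.145 to 0.378 FPKM in knockdown libraries and 0.208 to 0.363 FPKM in controls, a level at which its interval spans 41.1% to 161% of the control level.

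Both GABAB receptor genes had a log2 fold change within 0.01 of 0. Gabbr1, whose product binds GABA, was at 81.7, 77.3 and 80.6 FPKM in knockdown replicates 1 to 3, against 83.8, 79.3 and 79.5 FPKM in the controls. The fitted difference of 0.01 (SE 0.0639, adjusted p = 0.989) had an interval of 90.5% to 111% of the control level. Gabbr2, whose product couples the receptor to G proteins, averaged 43.9 ± 2.19 FPKM in the knockdown libraries and 44.6 ± 4.89 FPKM in the controls (SD, n = 3 each), with an interval of 86.4% to 116%. Gabbr1 exceeded Gabbr2 in each library, by a ratio of 1.82 ± 0.0638 in the knockdown libraries and 1.83 ± 0.221 in the controls (SD, n = 3 each).

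Glycine receptor transcripts were dominated by the beta subunit. Glrb, which anchors the receptor to gephyrin, was at 38.2, 30.2 and 35.7 FPKM in knockdown replicates 1 to 3, against 35.9, 38.9 and 28.7 FPKM in the controls. It made up 91.9% ± 0.321 of the summed FPKM of the 4 glycine receptor genes in the knockdown libraries and 91.4% ± 0.735 in the controls (SD, n = 3 each). Glra2, the alpha subunit best known from immature neurons, averaged 2.30 ± 0.219 FPKM in the knockdown libraries and 2.48 ± 0.286 FPKM in the controls. Glra3 was at 1.12, 0.474 and 0.510 FPKM in knockdown replicates 1 to 3, against 0.305, 1.11 and 0.694 FPKM in the controls. Its highest libraries were knockdown replicate 1 and control replicate 2, which also had the highest sums of the 5 neocortical markers, at 37.1 and 42.4 FPKM against 22.1 to 32.0 FPKM in the other 4 libraries. None of these 5 markers was listed at 0, and their part in the Glra3 values was not tested. Glra1, the adult subunit of spinal cord and brainstem, was at 0.141, 0 and 0.0987 FPKM in knockdown replicates 1 to 3, against 0.0562, 0 and 0.0780 FPKM in the controls.

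The postsynaptic scaffold and adhesion genes showed log2 fold changes of 0.06 to 0.17, none past the threshold. Nlgn2, the neuroligin of inhibitory synapses, was the most abundant of the 4, at 43.9, 42.7 and 43.9 FPKM in knockdown replicates 1 to 3, against 41.0, 46.0 and 39.6 FPKM in the controls. Gphn, which encodes gephyrin, was at 18.9, 21.9 and 21.0 FPKM in knockdown replicates 1 to 3, against 20.9, 19.8 and 19.3 FPKM in the controls. Lhfpl4, which links GABAA receptors to neuroligin, averaged 18.8 ± 0.794 FPKM in the knockdown libraries and 17.9 ± 1.72 FPKM in the controls. Slitrk3, an adhesion protein that organises inhibitory contacts, was at 16.3, 22.9 and 18.1 FPKM in knockdown replicates 1 to 3, against 15.9, 18.2 and 17.8 FPKM in the controls. The log2 difference of 0.17 for Slitrk3 (SE 0.130, adjusted p = 0.841) came to 0.01 without knockdown replicate 2.

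The pair of chloride transporters set an importer that was lower in the knockdown libraries beside an exporter whose groups overlapped. Slc12a2, the importer known as NKCC1 (GRCm39 chromosome 18, 58011750 to 58079893), was at 6.13, 4.97 and 6.25 FPKM in knockdown replicates 1 to 3, against 8.34, 6.90 and 11.8 FPKM in the controls. Every knockdown library lay below every control, at 64.2% of the control mean. In edgeR the log2 difference was -0.62 (SE 0.192, 95% interval -1.06 to -0.17, unadjusted p = 0.0138, adjusted p = 0.792), and over 17 alternatives the adjusted p was 0.128 to 0.996. Without control replicate 3 the log2 fold change was -0.38. With a model term for Y-linked counts it was -0.51, and in the libraries without such counts -0.52. Both of these values rest on control replicate 1 as the only control without Y-linked counts.

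Slc12a2 is made in many cell types besides neurons, choroid plexus epithelium and oligodendrocytes among them. Summed markers of both were also lower in the knockdown libraries, those of choroid plexus mainly against control replicate 3. All 12 choroid plexus markers had a negative log2 fold change. Control replicate 3, where Slc12a2 was highest, held their 4933 FPKM. Without that library the sums were 26.7 to 34.3 FPKM in the knockdown group and 41.9 and 55.1 FPKM in the controls. The largest part of each of these sums was Enpp2. It was at 21.7, 16.2 and 18.7 FPKM in knockdown replicates 1 to 3, against 37.7 and 24.6 FPKM in control replicates 1 and 2. Slc4a5 and Sostdc1 also lay lower in each knockdown library than in these controls, and the other markers of the list overlapped. All 10 oligodendrocyte markers had a negative log2 fold change as well, with sums of 624 to 649 FPKM in the knockdown libraries and 773 to 1217 FPKM in the controls. Slc4a5 was listed at 0 in some libraries, and no other marker of the 2 lists was. The part of these cells in the Slc12a2 difference was not tested, and in bulk tissue fewer cells of a type and less RNA per cell cannot be told apart.

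Slc12a5, the neuronal exporter known as KCC2, was at 84.9, 74.8 and 81.6 FPKM in knockdown replicates 1 to 3, against 78.8, 78.3 and 70.3 FPKM in the controls. Its groups overlapped, and the fitted log2 difference was 0.11 (SE 0.0803, adjusted p = 0.838). The ratio of exporter to importer, often used as a measure of the chloride balance of neurons, was 13.9, 15.0 and 13.1 in knockdown replicates 1 to 3, against 9.45, 11.4 and 5.96 in the controls. It was higher in every knockdown library than in any control, but it was formed after both genes had been seen and carries no test. In whole tissue the ratio takes in Slc12a2 transcripts of other cells, so here it does not measure the chloride balance of neurons. Its lowest value was in control replicate 3, the library with the choroid plexus transcripts.

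Abat (GRCm39 chromosome 16, 8331293 to 8439432), which encodes GABA transaminase, the enzyme that breaks down GABA, was higher in the knockdown libraries. It was at 37.9, 36.1 and 33.0 FPKM in knockdown replicates 1 to 3, against 31.3, 29.7 and 30.6 FPKM in the controls. Every knockdown library lay above every control, at 117% of the control mean. Its log2 fold change amounted to 0.25 (SE 0.0703, 95% interval 0.08 to 0.41, unadjusted p = 0.00903, adjusted p = 0.792), and over 17 alternatives it was 0.20 to 0.30, with an adjusted p of 0.185 to 0.996. For Abat the log2 fold change was 0.20 with a model term for Y-linked counts, and 0.20 in the libraries without such counts. Both values rest on control replicate 1 as the only control without Y-linked counts. The next enzyme of the pathway, succinic semialdehyde dehydrogenase, is encoded by Aldh5a1, which spanned 17.4 to 18.9 FPKM in knockdown libraries and 16.0 to 19.9 FPKM in controls. Abat is also made in astrocytes, and the 8 astrocyte markers were split. Their sums were 471 to 490 FPKM in the knockdown libraries and 485 to 494 FPKM in the controls, none was listed at 0, and 3 were higher and 5 lower. The groups did not overlap for 6 of the 8, against 13.0% of all tested genes. Of these, 2 were higher, Aldoc (log2 fold change 0.27) and Fgfr3 (0.36), and 4 were lower, among them Gfap (-0.62) and Aqp4 (-0.80). Their part in the Abat difference was not tested. The ratio of Abat to Aldh5a1 was 1.98 ± 0.0656 in the knockdown libraries and 1.74 ± 0.147 in the controls.

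**Figure D3:**
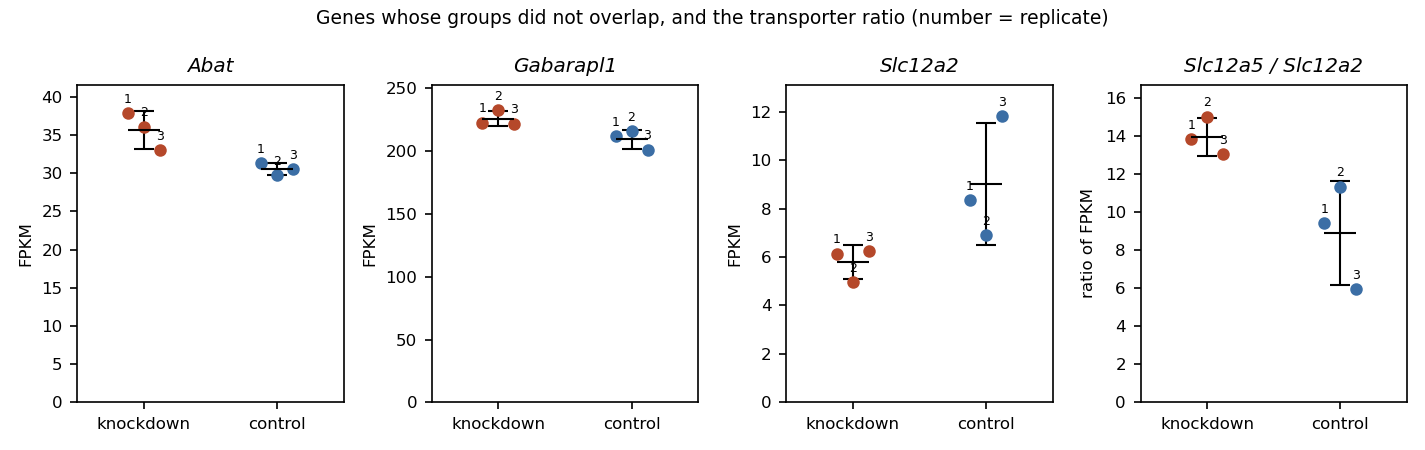
FPKM of Abat, Gabarapl1 and Slc12a2, and the ratio of Slc12a5 to Slc12a2, in each library (points, numbered by replicate) with the mean and SD of 3 libraries per group. Abat and Gabarapl1 are higher and Slc12a2 lower in every knockdown library, and control replicate 3 is the farthest from the knockdown group for Slc12a2.

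The GABARAP family, small ubiquitin-like proteins that carry GABAA receptors to the membrane and take part in autophagy, held the most abundant transcript of the 28. Gabarapl1 (GRCm39 chromosome 6, 129510123 to 129519309) was at 223, 233 and 222 FPKM in knockdown replicates 1 to 3, against 212, 216 and 201 FPKM in the controls. The groups did not overlap, and the log2 difference was 0.13 (SE 0.0649, unadjusted p = 0.0820, adjusted p = 0.798), with an interval of 98.5% to 122% of the control level. Gabarap averaged 44.0 ± 1.81 FPKM in the knockdown libraries and 44.2 ± 0.439 FPKM in the controls, and Gabarapl2 averaged 44.8 ± 0.995 FPKM against 42.7 ± 1.89 FPKM (SD, n = 3 each). Gabarapl1 exceeded Gabarap by a ratio of 5.14 ± 0.256 in the knockdown libraries and 4.75 ± 0.144 in the controls (SD, n = 3 each). The 3 genes are close relatives, and how the authors' counting treated reads shared between them is not given in the sources used here.

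The promoters of the family are shown because Gabarapl1 stands so far above its relatives in level. Each is the 250 bases before the start in RefSeq's table (GRCm38.p6, plus strand), at chr6:129532942-129533191 for Gabarapl1, chr11:69991120-69991369 for Gabarap and chr8:111940453-111940702 for Gabarapl2, with GGGCGG on either strand in capitals.
Gabarapl1: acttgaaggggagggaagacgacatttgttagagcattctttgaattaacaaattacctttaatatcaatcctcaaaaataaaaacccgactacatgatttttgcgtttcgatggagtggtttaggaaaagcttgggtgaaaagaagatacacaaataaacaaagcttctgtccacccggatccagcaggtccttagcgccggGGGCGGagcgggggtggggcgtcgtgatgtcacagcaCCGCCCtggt
Gabarap: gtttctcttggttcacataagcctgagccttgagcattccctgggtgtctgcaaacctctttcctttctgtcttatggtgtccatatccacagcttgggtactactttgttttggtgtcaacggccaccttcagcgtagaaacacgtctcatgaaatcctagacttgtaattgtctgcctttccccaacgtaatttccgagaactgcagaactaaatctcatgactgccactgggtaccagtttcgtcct
Gabarapl2: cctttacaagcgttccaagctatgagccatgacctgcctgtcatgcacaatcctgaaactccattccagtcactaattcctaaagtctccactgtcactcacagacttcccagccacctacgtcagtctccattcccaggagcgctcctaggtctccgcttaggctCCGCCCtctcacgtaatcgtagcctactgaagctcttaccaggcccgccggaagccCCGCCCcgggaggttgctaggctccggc
Gabarapl1 and Gabarapl2 had 2 GC boxes each and Gabarap none, and 4 bases lay between the nearest one and the start in Gabarapl1 and 22 bases in Gabarapl2. GC content was 46.8% for Gabarapl1, 46.4% for Gabarap and 57.2% for Gabarapl2. TGACGTCA (the cAMP response element), TGTTTAC (a forkhead motif), CACGTG (an E-box) and TATAAA (the TATA box) were searched on both strands and had no match in these 3 windows or that of Gabra4. They occur in 1.55%, 3.17%, 6.02% and 12.4% of all windows of this length, in that order, and 24 of the 28 genes had a window in the table.

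**Figure D4:**
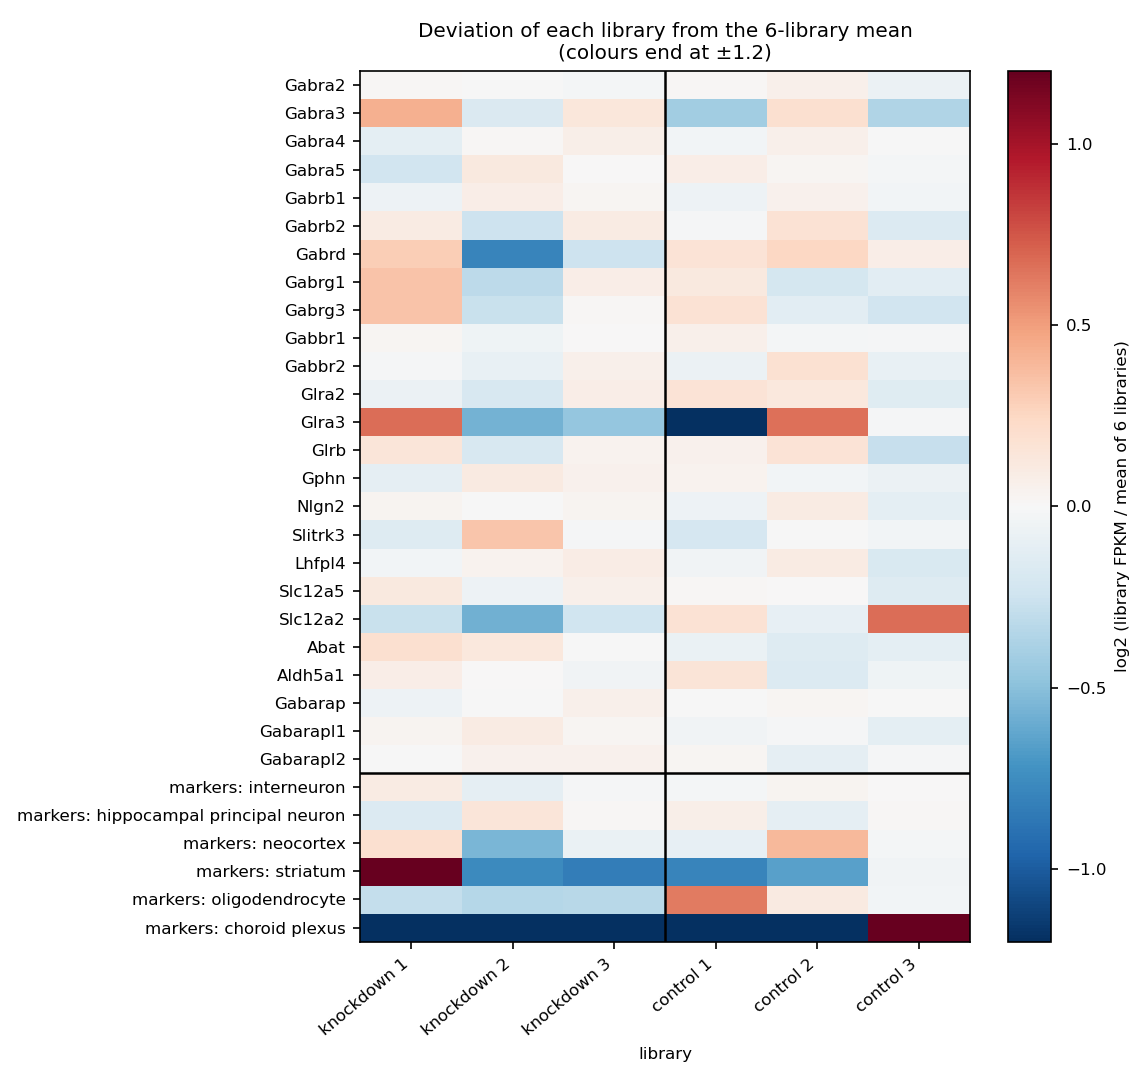
Log2 of each library's FPKM over the mean of the 6 libraries, for the 25 genes averaging 0.3 FPKM or more (above the line) and for summed marker lists (below it), knockdown libraries on the left; colours end at ±1.2. Glra3 and the neocortical markers are highest in knockdown replicate 1 and control replicate 2, Gabrd is lowest in knockdown replicate 2, and Slc12a2 and the choroid plexus markers are highest in control replicate 3.

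The genes also differed in how they varied among libraries of one group. Over the 3 controls the coefficient of variation was 0.995% for Gabarap, 2.63% for Abat and 3.14% for Gabbr1. It was 15.2% for Glrb, 24.8% for Gabra3 and 57.3% for Glra3. Among the 25 genes averaging 0.3 FPKM or more, knockdown replicate 1 was the highest library for 7 and control replicate 2 for 6. Knockdown replicate 2 and control replicate 3 were each the lowest for 7.

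None of the marker genes of neurons and astrocytes was called, but some had groups that did not overlap, as had 13.0% of all tested genes. The 8 general neuronal markers summed to 861 to 954 FPKM in the knockdown libraries and 808 to 955 FPKM in the controls, and the 9 markers of hippocampal principal neurons to 223 to 277 FPKM against 233 to 264 FPKM, so the sums overlapped in both. Of the 9 principal neuron markers 4 were higher and 5 lower in the knockdown group, with a median log2 fold change of -0.05. Fibcd1, a gene of CA1 pyramidal neurons, was at 25.2, 37.4 and 24.4 FPKM in knockdown replicates 1 to 3, against 14.4, 17.6 and 17.9 FPKM in the controls. It was the only marker of the 9 with groups that did not overlap (edgeR unadjusted p = 0.00188, adjusted p = 0.792). The 10 interneuron markers summed to 377 to 435 FPKM in the knockdown libraries and 400 to 417 FPKM in the controls, with 7 higher and 3 lower. Of these, Lhx6 (log2 fold change 0.39) was higher and Cck (-0.24) and Npy (-0.34) were lower in every knockdown library than in any control. The part of these cells in the values of the inhibitory genes was not tested. Markers of the cerebellum summed to 8.90 to 25.8 FPKM over the 6 libraries, most of it from Zic1 and Zic2, while the granule cell gene Cbln3 was at 0.0464 to 0.170 FPKM.

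Of 80 other genes of the same pathways, 76 were tested and 0 were called, with a median log2 fold change of 0.01. At an unadjusted p under 0.05 there were 10 of the 76, or 13.2%, against 6.19% of all tested genes. Of these, 4 were higher and 6 lower, against 3.03% and 3.16% of all tested genes. The lists were chosen with results of these data known, so the share carries no test. Among 13 genes of GABA and glycine synthesis, vesicle loading and uptake, 8 were higher and 4 lower of the 12 tested. Slc38a3, a glutamine transporter of astrocytes, was at 12.7, 8.34 and 11.0 FPKM in knockdown replicates 1 to 3, against 14.0, 12.8 and 21.8 FPKM in the controls, and its log2 fold change was -0.58 (SE 0.224, adjusted p = 0.792). Its highest value was in control replicate 3, the library with the choroid plexus transcripts, and the other controls lay close to knockdown replicate 1. The part of that library and of the astrocyte markers given above in this difference was not tested. Gad1, which makes GABA, was at 49.9, 36.9 and 46.6 FPKM in knockdown replicates 1 to 3, against 41.8, 38.1 and 34.4 FPKM in the controls, with overlapping groups.

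The other lists held no call either. Of 22 further postsynaptic partners, 14 were higher and 8 lower, led by Trak2, an adaptor that links cargo to kinesin, at -0.26 (SE 0.0765), Hap1, the huntingtin-associated protein, at 0.33 (SE 0.110), and Shisa7, an auxiliary subunit of GABAA receptors, at 0.22 (SE 0.0746); all 3 had an adjusted p of 0.792 in edgeR. Of 10 auxiliary subunits and coupled channels of GABAB receptors, 3 were higher and 7 lower, and the smallest unadjusted p was 0.160, for the potassium channel gene Kcnj6 at -0.26 (SE 0.165). Of 15 chloride and bicarbonate regulators, 6 were higher and 9 lower. They were led by Neto2, an auxiliary protein that binds the exporter, at -0.32 (SE 0.119), Car2, a carbonic anhydrase also abundant in oligodendrocytes, at -0.70 (SE 0.271), and the chloride channel gene Clcn2 at 0.18 (SE 0.0737). Of 15 autophagy genes that act with the GABARAP family, 10 were higher and 5 lower, with Atg12 at -0.17 (SE 0.0620), Map1lc3a at -0.18 (SE 0.0939) and Sqstm1 at 0.14 (SE 0.0848).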

How the data were processed

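Per the labels' protocols, oligo(dT)-purified mRNA went into dUTP libraries sequenced from both ends. HISAT2 2.2.1, cutadapt 1.9, edgeR, DESeq2, StringTie 2.1.6 and the build GRCm39 appear in the submitters' processing notes, without settings. For every library the authors deposited FPKM values beside estimated counts, per the file headers. All deposited estimated counts were whole, so none was rounded. They pile up at 4: control replicate 2 had 1140 genes with a count of 4, against 576 at 3 and 390 at 5, so the number of counted fragments is not known.

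Counts were tested with edgeR 4.0.16 in R 4.3.3 (filterByExpr with a minimum count of 10, TMM factors, quasi-likelihood F test, Benjamini-Hochberg adjustment over 20946 genes). Each standard error is the log2 fold change over the root of F, and intervals cover 95%. The pipeline was checked on simulated counts. The labels number mice 1 to 3 in each group. Deviations of same-numbered libraries correlated at -0.0994 to -0.0117, so the numbers were not taken as pairs. Alternatives were RLE factors, no filter, a replicate block, DESeq2 1.42.0, limma 3.58.1 on log2(FPKM + 1) or log2(FPKM + 0.1), counts divided by 4, a sex term, the libraries without Y-linked counts and leaving out each library. The fit without knockdown replicate 1 and control replicate 3 was added after seeing the data.

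The members and lists were chosen with earlier results of these data known. Values in every library are printed for members whose groups do not overlap or whose unadjusted p is under 0.05, for the most abundant member of each role and for members with an outlying library. Up to 3 genes with the smallest p are named per further list. 1 of them is not reported here. Other genes were named after their values were seen. Promoters came from a RefSeq table of another build, whose coordinates are given as such.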

Additional observations from a re-analysis of the deposited data

How the results depend on the processing

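Under all 17 alternatives no member and none of the 80 other pathway genes passed an adjusted p under 0.05, and the smallest adjusted p of a member was 0.128, for Slc12a2 in DESeq2. DESeq2 called 74 genes in all. At an unadjusted p under 0.05 the count of members was 2 in the main fit and 2 or 3 under all alternatives but these: it was 0 with the sex term, where the difference rests on control replicate 1 as the only control without Y-linked counts, and 1 when control replicates 2 and 3, which hold Y-linked counts, were left out. With the replicate block it was 2, and the block changed no call. It was 3 without knockdown replicate 1, where Gabrd joined, without control replicate 2, where Gabra3 joined, and without knockdown replicate 1 and control replicate 3 together, where Slc12a2, Gabrd and Gabrq passed and Abat did not. The median log2 fold change of the members was 0.02 to 0.08 without single libraries and 0.0074 without knockdown replicate 1 and control replicate 3 together, a move smaller than its SD between libraries of 0.0445. The sign changed under at least 1 alternative for 13 of the 27 tested members, the largest main log2 fold change among them being 0.152 in size, for Gabrg1, and the smallest unadjusted p in any of those fits was 0.202; the cause was not tested. Abat, Gabarapl1 and Slc12a2 kept their sign under all alternatives. Gabra6 was too low to be tested, and the interval of Glra1, -2.44 to 4.11 on the log2 scale, is wide.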

Other observations

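The rho subunits, which form GABA-gated channels best known from the retina, and other rare subunits were close to the limit of detection. Gabrr2 was at 0.152, 0.692 and 0.355 FPKM in knockdown replicates 1 to 3, against 0.175, 0.128 and 0.181 FPKM in the controls. Its log2 fold change was 1.32 (SE 0.580, edgeR unadjusted p = 0.0551, adjusted p = 0.792), and the lowest knockdown library lay within the control range. Gabre, the epsilon subunit, spanned 0.0320 to 0.132 FPKM in knockdown libraries and 0.0441 to 0.279 FPKM in controls. Gabrp, Gabrr1 and Gabrr3 fell under the count filter.

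Knockdown replicate 1 held the 6 striatal markers at 101.9 FPKM in sum. Among them Adora2a, the adenosine receptor of striatal neurons, was at 8.22, 0.445 and 0.406 FPKM in knockdown replicates 1 to 3, against 0.252, 0.458 and 0.461 FPKM in the controls. In the same library Abat, Gabra3, Gabra6, Gabrd, Gabrg1, Gabrg3, Gabrq, Glra1, Glra3 and Slc12a5 were at their highest level of all 6 libraries. Gabra6 and Glra1 were near 0 even there, at 0.0224 and 0.141 FPKM. The share of all genes that were highest in this library was not counted. The part of striatal transcripts in these values was not tested.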
